A study of Mus musculus with 6 samples.

Results

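The MYC, MAX and MXD network comprises the 10 genes Myc, Mycn, Mycl, Max, Mxd1, Mxi1, Mxd3, Mxd4, Mnt and Mga, chosen by name, and was examined in mouse AML1-ETO9a leukaemia cells with and without AES. All 10 were measured, each by a single row of the array table that carried 1 gene symbol, among 19938 genes so named. E14.5 fetal liver cells of the C57BL/6 strain with wildtype or floxed AES alleles were all transduced with AML1-ETO9a, a shortened leukaemia-causing version of the AML1-ETO fusion protein, and transplanted. The recipients of both kinds received tamoxifen 4 weeks later, to delete the floxed alleles, and cells carrying GFP were isolated from spleen by flow cytometry. The 3 AES wildtype samples were taken when the animals died of leukaemia and the 3 AES knockout samples at the end of the experiment, so genotype and time of collection cannot be told apart. The labels state neither the Cre driver nor the age of the recipients, nor whether each sample was 1 animal, and p-values therefore measure the spread between these samples.

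MYC, MYCN and MYCL are transcription factors of the basic helix-loop-helix leucine zipper class, which bind DNA as dimers with MAX and raise the transcription of genes for growth, ribosome production and the cell cycle. The MXD proteins, MNT and MGA take the same partner and recognise the same E-box sequence but recruit repressors, so that the balance between the arms sets the output. In the myeloid lineage MYC is known to be high in dividing progenitors and MXD1 to be raised in differentiating granulocytes, and MYC is a well studied driver of leukaemia.

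The core sequence that all of these dimers recognise, CACGTG, which reads the same on both strands, was looked for in the 250 bases before and 50 bases after the start site of each member, using RefSeq sequences of build GRCm38.p6. Of the 10 members, 9 matched the promoter table, and Myc did not. CACGTG was present for Max, Mxd4 and Mnt, which is 3 of 9 members, against 8.09% of the 27025 genes and 7.15% of the 32851 windows of the table. The upstream sequences of these 3 genes are shown because they hold the network's own recognition sequence. They are written 5′ to 3′ on the gene's strand with CACGTG in capitals, and each runs up to the start site or, for Max, to the end of a match that spans it.
Max (chr12:76962246-76962498, minus strand): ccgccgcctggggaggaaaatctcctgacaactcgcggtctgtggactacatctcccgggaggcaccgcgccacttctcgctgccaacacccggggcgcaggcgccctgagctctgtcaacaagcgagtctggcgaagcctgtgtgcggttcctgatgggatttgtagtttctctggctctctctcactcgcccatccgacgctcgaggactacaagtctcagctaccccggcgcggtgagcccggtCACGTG
Mxd4 (chr5:34187711-34187960, minus strand): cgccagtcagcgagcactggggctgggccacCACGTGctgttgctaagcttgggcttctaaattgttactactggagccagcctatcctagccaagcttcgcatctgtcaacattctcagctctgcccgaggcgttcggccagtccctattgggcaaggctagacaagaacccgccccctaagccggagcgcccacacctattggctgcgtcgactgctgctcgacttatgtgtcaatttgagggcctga
Mnt (chr11:74830674-74830923, plus strand): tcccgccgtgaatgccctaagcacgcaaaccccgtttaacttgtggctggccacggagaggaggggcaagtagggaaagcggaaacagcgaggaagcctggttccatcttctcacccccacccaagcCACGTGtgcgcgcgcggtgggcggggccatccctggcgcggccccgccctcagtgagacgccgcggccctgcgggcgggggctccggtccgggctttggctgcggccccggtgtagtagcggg
The match begins 3 bases before the start site in Max, 219 bases before it in Mxd4 and 123 bases before it in Mnt. The windows of Mycn, Mycl, Mxd1, Mxd3, Mga and all 3 windows of Mxi1 do not hold these letters. A match is a description of the sequence, and binding was not measured.

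The array values are the authors' processed values, used as log2 values, for which a difference of 1 is a 2-fold change. The targeted gene Aes, listed as Tle5, lay between 11.10 and 11.13 in wildtype and between 8.80 and 9.33 in knockout samples. The medians of the 6 arrays lay between 6.47 and 6.65. The arrays differed within each genotype in markers of mature neutrophils: the mean log2 level of 10 of 10 listed genes was 9.15, 7.49 and 5.41 on wildtype replicates 1 to 3 and 5.35, 9.30 and 9.43 on knockout replicates 1 to 3. The mean level ran from 7.43 to 10.91 for 8 of 8 mast cell and basophil markers, from 6.21 to 8.52 for 10 of 10 macrophage markers and from 7.32 to 9.53 for 11 of 11 blast markers. Of the blast markers, Kit ranged from 10.60 to 11.80, while Mpo lay below the array median on wildtype replicate 3 and knockout replicate 1 (6.27 and 6.08), as did the leucocyte marker Ptprc on knockout replicate 1 (5.76). Of 9 erythroid markers, 6 were measured, and their mean level was between 9.75 and 11.53 on all arrays. The Y-linked genes Kdm5d and Uty lay between 8.99 and 9.36 on the 3 wildtype arrays and knockout replicate 2 and between 4.14 and 5.45 on knockout replicates 1 and 3, and the part of this difference in the results was not tested. Knockout replicate 3 had the lowest value of the 6 arrays for 24.7% of all genes and wildtype replicate 1 for 26.0%, while knockout replicate 1 had the highest for 27.0%.

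No member of the network passed the test between the genotypes. With limma and Benjamini-Hochberg adjustment, 0 of 10 members passed an adjusted p of 0.05, against 0 of 19938 genes (0%), and 0 of 10 had an unadjusted p under 0.05, against 505 genes (2.53%). Without variance moderation 661 genes had an unadjusted p under 0.05 and 0 passed after adjustment. The groups did not overlap for 0 of 10 members and for 1426 of all genes (7.15%). Mean levels were higher in knockout cells for 5 members and lower for 5, and 50.9% of all genes were higher. The median difference of the members was 0.012, beside 0.0029 for all genes. What the arrays did show, for some members, was variation between samples of one genotype. The SD within genotypes, pooled over both, was 0.46 for Myc, 0.29 for Max, 0.55 for Mxd1 and 0.50 for Mxd4. It was 0.32 for Mxd3 (0.052 in wildtype and 0.45 in knockout cells). For the other members it was 0.18 (Mga), 0.14 (Mycl), 0.13 (Mxi1), 0.085 (Mnt) and 0.076 (Mycn). The median of all genes, dim ones included, was 0.15.

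**Figure D1:**
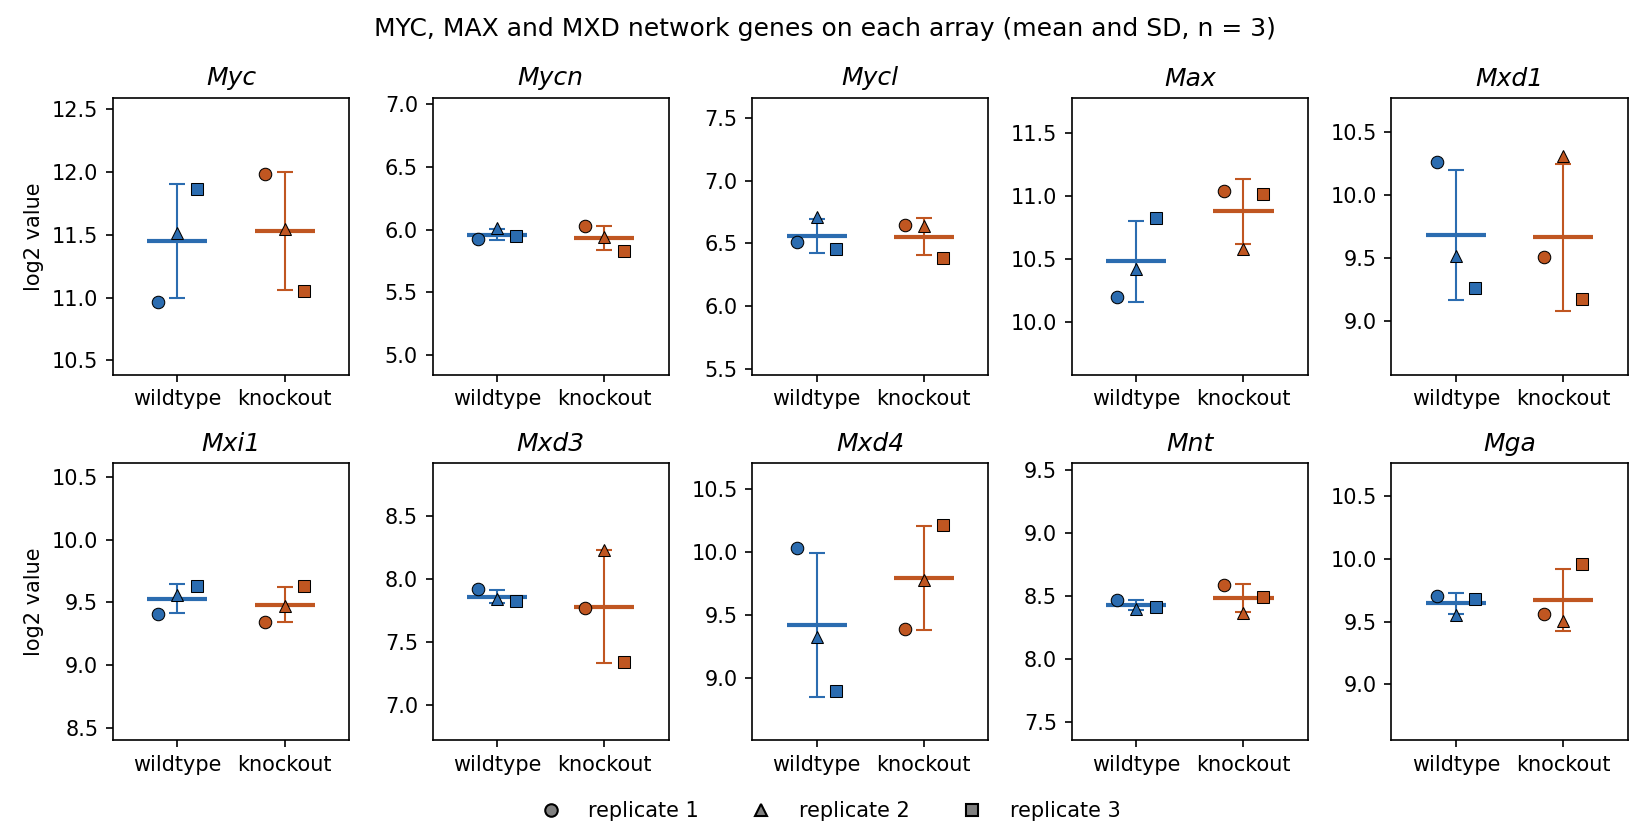
Log2 values of the 10 genes on each array, with wildtype in blue, knockout in orange, symbols for the replicate number, bars for the mean and whiskers for the SD (n = 3); each vertical axis spans the same number of log2 units. The groups overlap for every gene, and Myc, Max, Mxd1, Mxd4 and, in knockout cells, Mxd3 spread most widely.

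Among the activators, Myc, the member that drives growth in most dividing blood cells, had log2 values of 10.96, 11.52 and 11.86 on wildtype replicates 1 to 3 and 11.99, 11.55 and 11.05 on knockout replicates 1 to 3. Wildtype replicate 1 and knockout replicate 3 were the low arrays, wildtype replicate 3 and knockout replicate 1 the high ones, and the groups overlapped. The wildtype mean was 11.45 ± 0.45 and the knockout mean 11.53 ± 0.47 (SD, n = 3 each). The difference was 0.081 on the log2 scale (SE 0.32, 95% interval -0.71 to 0.87, limma adjusted p = 1.00), so a change of Myc of up to 1.83-fold upward lies within the interval. The direction was not stable, since the difference was -0.16 without wildtype replicate 1, -0.15 without knockout replicate 1 and 0.32 without knockout replicate 3. Single arrays, which are not the same measure as group means, differed within genotypes and between them. Myc was 1.86-fold higher on wildtype replicate 3 than on wildtype replicate 1, and 1.91-fold higher on knockout replicate 1 than on knockout replicate 3. The widest pair was between genotypes, with Myc 2.03-fold higher on knockout replicate 1 than on wildtype replicate 1. The neutrophil markers were at their lowest (5.41 and 5.35) on the arrays where Myc was highest, and at 9.15 and 9.43 where Myc was lowest, while knockout replicate 2, at 9.30, had a middle Myc value of 11.55. Macrophage markers likewise stood at -0.61 and -1.07 from their 6-array mean on the arrays with the highest Myc and at 0.49 and 1.24 on those with the lowest, and blast markers at -0.89 and -1.11 against 1.09 and 0.89. The blast markers did not all move alike. Myb was at 11.47 and 11.69 on the arrays with the highest Myc and at 11.16 and 11.54 on those with the lowest, and Spi1 lay within 10.47 to 10.93 on all arrays. The part of these markers in the values of Myc was not tested, and in sorted cells a different mix of cells and a different amount of transcript per cell cannot be told apart.

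Mycn, the relative known from the nervous system and from early progenitors, had values of 5.92, 6.01 and 5.95 in wildtype and 6.03, 5.94 and 5.83 in knockout cells. All 6 values lay below the array medians. The difference was -0.026 (SE 0.083, limma adjusted p = 1.00). Mycl, the third activator, known for its role in dendritic cells, had values of 6.51, 6.71 and 6.45 in wildtype and 6.64, 6.64 and 6.38 in knockout cells, and 3 of the 6 lay below the array median. Its difference was -0.0048 (SE 0.12, adjusted p = 1.00). No detection calls were used, so values this near the array median may be background, and small changes there are compressed.

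Max, the shared partner of both arms, had the smallest unadjusted p of the members. Its values were 10.19, 10.42 and 10.83 in wildtype and 11.04, 10.58 and 11.02 in knockout cells. Knockout replicates 1 and 3 were above every wildtype array, and knockout replicate 2 lay below wildtype replicate 3. Knockout replicates 1 and 3 were also the arrays with low Kdm5d and Uty (4.14 to 5.45), and the part of this difference in Max was not tested. With knockout replicate 2 left out, genotype and the level of these Y-linked genes cannot be told apart. The means were 10.48 ± 0.32 and 10.88 ± 0.26 (SD, n = 3 each), a difference of 0.40 (SE 0.21, 95% interval -0.11 to 0.91) with an unadjusted limma p of 0.104 and an adjusted p of 1.00. An exact two-sided permutation test over the 6 samples gave 0.2, where the smallest that 3 against 3 allows is 0.1. The difference was 0.26 without wildtype replicate 1, 0.55 without knockout replicate 2 and 0.57 without wildtype replicate 3, and array weights gave 0.23. Max and Myc were both lowest on wildtype replicate 1 and highest on knockout replicate 1. They parted on knockout replicate 3, where Max was 0.34 above its 6-array mean and Myc 0.44 below its own (deviation -0.44).

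Of the MXD repressors, Mxd1, which replaces MYC on MAX as granulocytes mature, had values of 10.26, 9.52 and 9.27 in wildtype and 9.51, 10.31 and 9.17 in knockout cells. A single array in each genotype was high, wildtype replicate 1 and knockout replicate 2, and the other 4 lay within 9.17 to 9.52. The difference was -0.018 (SE 0.38, 95% interval -0.96 to 0.92, limma adjusted p = 1.00), and it turned to 0.27 without wildtype replicate 1, 0.23 without knockout replicate 3 and 0.39 with array weights. Mxd1 was 2.21-fold higher on knockout replicate 2 than on knockout replicate 3, where the neutrophil markers were at 9.30 and 9.43. The erythroid markers had mean deviations of 0.48, -0.21 and -0.52 on wildtype replicates 1 to 3. On knockout replicates 1 to 3 these were 0.23, 0.91 and -0.88, so knockout replicates 2 and 3 held the extremes of Mxd1 and of this list. The part of the markers in the level of Mxd1 was not tested.

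Mxd4, a family member expressed in cells that leave the cycle, varied most of the 10 between its highest and lowest array. It had values of 10.03, 9.32 and 8.90 in wildtype and 9.39, 9.78 and 10.22 in knockout cells. Knockout replicate 3 and wildtype replicate 1 were high, wildtype replicate 3 was low, and the groups overlapped. The means were 9.42 ± 0.57 and 9.79 ± 0.42 (SD, n = 3 each), a difference of 0.38 (SE 0.35, 95% interval -0.48 to 1.23, limma adjusted p = 1.00). It was 0.68 without wildtype replicate 1, 0.58 without knockout replicate 1, 0.16 without knockout replicate 3 and 0.12 without wildtype replicate 3. Mxd4 was high on both arrays where Myc was lowest: it was 2.19-fold higher on wildtype replicate 1 than on wildtype replicate 3, where Myc was 1.86-fold lower, and 1.78-fold higher on knockout replicate 3 than on knockout replicate 1, where Myc was 1.91-fold lower. On knockout replicate 3, which had the highest Mxd4, Mxd1 was at its lowest, so the family members did not vary as a block.

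Mxd3, unusual in the family for being expressed in dividing cells in S phase, had values of 7.92, 7.84 and 7.82 in wildtype and 7.77, 8.23 and 7.34 in knockout cells. The wildtype arrays lay close together (SD 0.052), and the knockout arrays held both the highest and the lowest value (SD 0.45). The difference was -0.079 (SE 0.22, limma adjusted p = 1.00), 0.14 without knockout replicate 3, -0.30 without knockout replicate 2 and 0.15 with array weights. The arrays with the highest and lowest Mxd3 were also those with the highest and lowest G2/M genes, a list of 19 mitotic genes. The mean deviations of that list were 0.25 on knockout replicate 2 and -0.70 on knockout replicate 3. Mxd1 (values of 10.31 and 9.17) and the erythroid markers (mean deviations of 0.91 and -0.88) had their extremes on the same arrays. The match with the G2/M genes was thus not particular to Mxd3, and the part of the cell cycle in Mxd3 was not tested. Mxi1, also called MXD2 in some texts, had values of 9.40, 9.56 and 9.63 in wildtype and 9.35, 9.47 and 9.63 in knockout cells. Its difference was -0.047 (SE 0.11, adjusted p = 1.00), and its 6 values lay within 0.28 log2 units.

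Of the other repressors, Mnt was the steadiest member whose values lay above the array medians. Mnt, a broadly expressed MAX partner that opposes MYC in most cells, had values of 8.47, 8.39 and 8.42 in wildtype and 8.59, 8.36 and 8.50 in knockout cells. Its difference was 0.056 (SE 0.087, limma adjusted p = 1.00), and its 95% interval of -0.16 to 0.27 leaves out any rise above 1.21-fold. Mga, a very large protein with both a T-box and a MAX-binding domain and the DNA-binding part of a polycomb complex, had values of 9.71, 9.55 and 9.68 in wildtype and 9.56, 9.51 and 9.95 in knockout cells. Knockout replicate 3 was high and the other 5 arrays lay within 9.51 to 9.71. Its difference was 0.028 (SE 0.14, adjusted p = 1.00), and -0.11 without knockout replicate 3.

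**Figure D2:**
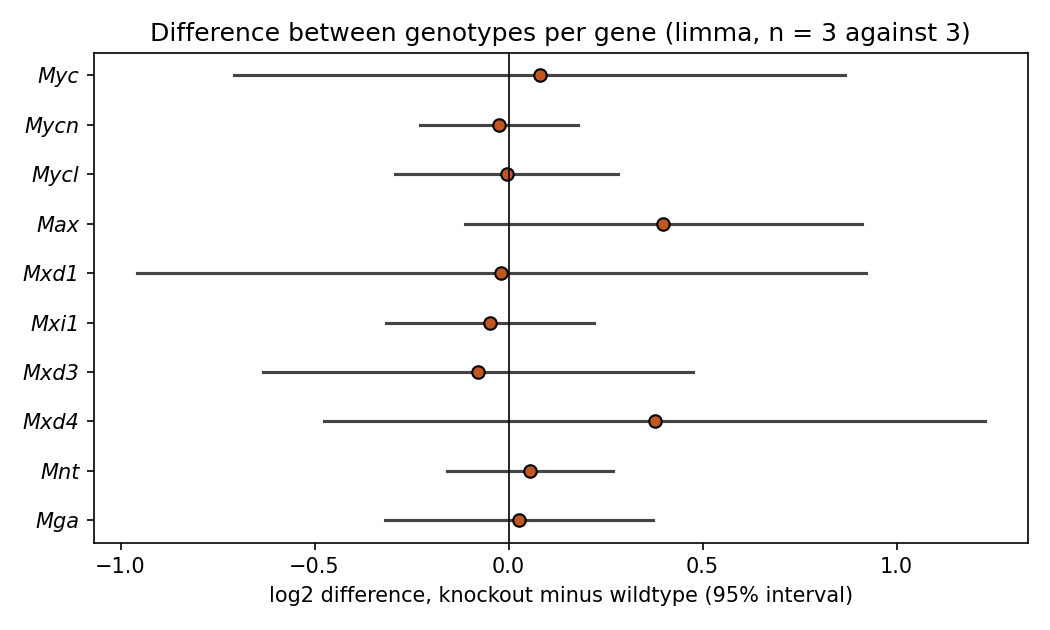
Log2 difference between knockout and wildtype means for each of the 10 genes (points) with the 95% interval from limma (lines), on 3 arrays per group. Every interval includes 0, that of Max runs from -0.11 to 0.91, and that of Mycn is the narrowest.

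The genes whose array profile was most like that of a member were taken from 9437 genes with a mean log2 value of at least 7, by the root mean square difference between centred values on the 6 arrays. For Myc these were Zfp239, a zinc finger gene (0.083 log2 units), Tbc1d7, a subunit of the TSC complex that restrains growth signalling (0.089), Vrk1, a kinase of dividing cells (0.092), and Gm9958 (0.11). Zfp239 had values of 7.05, 7.68 and 7.99 in wildtype and 8.26, 7.86 and 7.18 in knockout cells. For Mxd1 the nearest were Rnf43 (0.099), Ero1b (0.14), Icam1 (0.14) and Arf5 (0.15). Icam1, an adhesion molecule, had 9.84, 8.92 and 8.93 in wildtype and 9.34, 9.89 and 8.94 in knockout cells. For Mxd4 they were Pold4, a small subunit of DNA polymerase delta (0.17), Nradd (0.18), Inpp5k (0.18) and Phf1 (0.19). With 6 arrays and 9437 candidates these lists are a description.

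**Figure D3:**
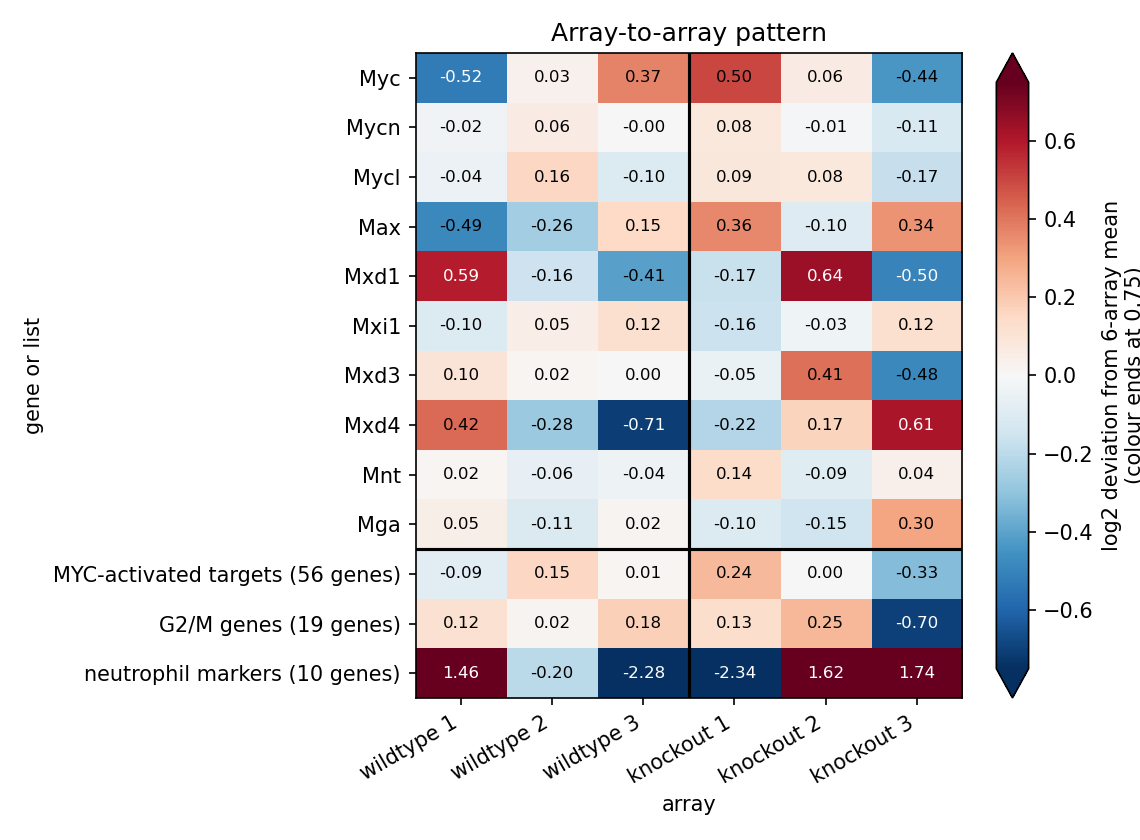
Deviation of each gene, and mean deviation of 3 gene lists, from its 6-array mean on each array, in log2 units; the lists are below the horizontal line and the genotypes are parted by the vertical line. Myc is 0.52 below its mean on wildtype replicate 1 (-0.52) and at -0.44 on knockout replicate 3, where Mxd4 is at 0.42 and 0.61.

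The targets of MYC were then described by their counts. The 60 listed genes that MYC activates hold nucleolar, translation and metabolic genes, and 56 were measured. None passed the adjusted limma test, 0 had an unadjusted p under 0.05 (2.53% of all genes did), 17 had higher and 39 lower means in knockout cells, and the median difference was -0.038, beside 0.0029 for all genes. The median turned to 0.10 without knockout replicate 3 and to 0.011 without wildtype replicate 2, and was -0.18 without knockout replicate 1. Of the 4 with the highest mean, Ldha, which makes lactate, had a difference of 0.14, the cyclin Ccnd2 0.16, and the translation factors Eif4a1 and Eif5a 0.028 and 0.031 (adjusted p = 1.00 for each).

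The target genes shared their extreme arrays more than genes at large. Of the 56, 39 (69.6%) had their highest value on knockout replicate 1, beside 27.0% of all genes, and 40 (71.4%) their lowest on knockout replicate 3, beside 24.7% of all genes. Several cofactor lists leaned the same way. The shares were 42.9% and 50.0% for SIN3 co-repressors, 42.9% and 28.6% for co-activators, and 41.7% and 33.3% for the MGA complex. They were 33.3% and 38.9% for MYC protein turnover and 27.3% and 27.3% for MYC-binding factors. Repressed targets had 11.1% and 5.56%, and G2/M genes 15.8% and 100%. The mean deviation of the activated targets was -0.088, 0.15 and 0.012 on wildtype replicates 1 to 3 and 0.24, 0.0026 and -0.33 on knockout replicates 1 to 3. Knockout replicate 1 thus had the highest Myc and the highest targets, and knockout replicate 3 a low Myc and the lowest targets. The other arrays did not follow this order. Wildtype replicate 3, with Myc at 11.86, had targets at 0.012 and the highest value for 0 of them. Wildtype replicate 2, with Myc at 11.52, had targets at 0.15 and the highest value for 12 (21.4%, beside 15.5% of all genes). Wildtype replicate 1, with the lowest Myc (10.96), had the lowest value for 9 targets (16.1%, beside 26.0% of all genes). The G2/M genes, which mark dividing cells, had all 19 lowest values on knockout replicate 3, so the lowest targets and the lowest mitotic genes were on the same array, and the part of the cell cycle in the target values was not tested. The mean deviation of the G2/M genes was 0.12, 0.020 and 0.18 on wildtype replicates 1 to 3 and 0.13, 0.25 and -0.70 on knockout replicates 1 to 3.

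Among the activated targets with a promoter in the RefSeq table, 17 of 49 (34.7%) held CACGTG, beside 8.09% of all genes. The list was chosen as genes that MYC activates, so this share describes the choice of genes and is not a result of the arrays. In the other lists the share ran from 0.0% for MYC-binding factors to 66.7% (2 of 3) for the MLX branch, with 15.4% for repressed targets. Activated targets with the sequence had a median difference of -0.0066 between genotypes (8 higher and 9 lower), and the 32 without it -0.039 (8 higher and 24 lower). Their array profiles were alike, with mean deviations of 0.22 and 0.27 on knockout replicate 1 and of -0.27 and -0.37 on knockout replicate 3, for those with and without the sequence.

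Of 19 genes that MYC represses, 18 were measured, with 8 higher and 10 lower in knockout cells, a median difference of -0.026 and no adjusted call. The median was 0.087 without wildtype replicate 1, 0.078 without knockout replicate 1, 0.023 without knockout replicate 3 and -0.11 without wildtype replicate 3, and 0.048 with array weights. The 2 with an unadjusted limma p under 0.05 (11.1%, beside 2.53% of all genes) were both lower. Groups did not overlap for these 2 alone (11.1% of the list, beside 7.15% of all genes). Klf6, a zinc finger factor induced early by many stimuli, had values of 12.53, 12.29 and 12.11 in wildtype and 11.39, 11.63 and 11.87 in knockout cells (difference -0.68, SE 0.17, limma adjusted p = 1.00). Gadd45b, a stress-induced gene, had values of 10.07, 9.25 and 8.996 in wildtype and 7.64, 8.57 and 8.04 in knockout cells (difference -1.36, SE 0.36, adjusted p = 1.00), and is named here because of its small p. The brightest of the list other than Klf6 were Fth1 (-0.016), Txnip (0.0025) and Btg1 (-0.13). The range of the list, from -1.36 to 1.45, was the widest of the cofactor, target and cell cycle lists, its upper end being Ndrg2, which had 7.79 on wildtype replicate 1 and, on each of the other 5, a value between 10.62 and 12.10.

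**Figure D4:**
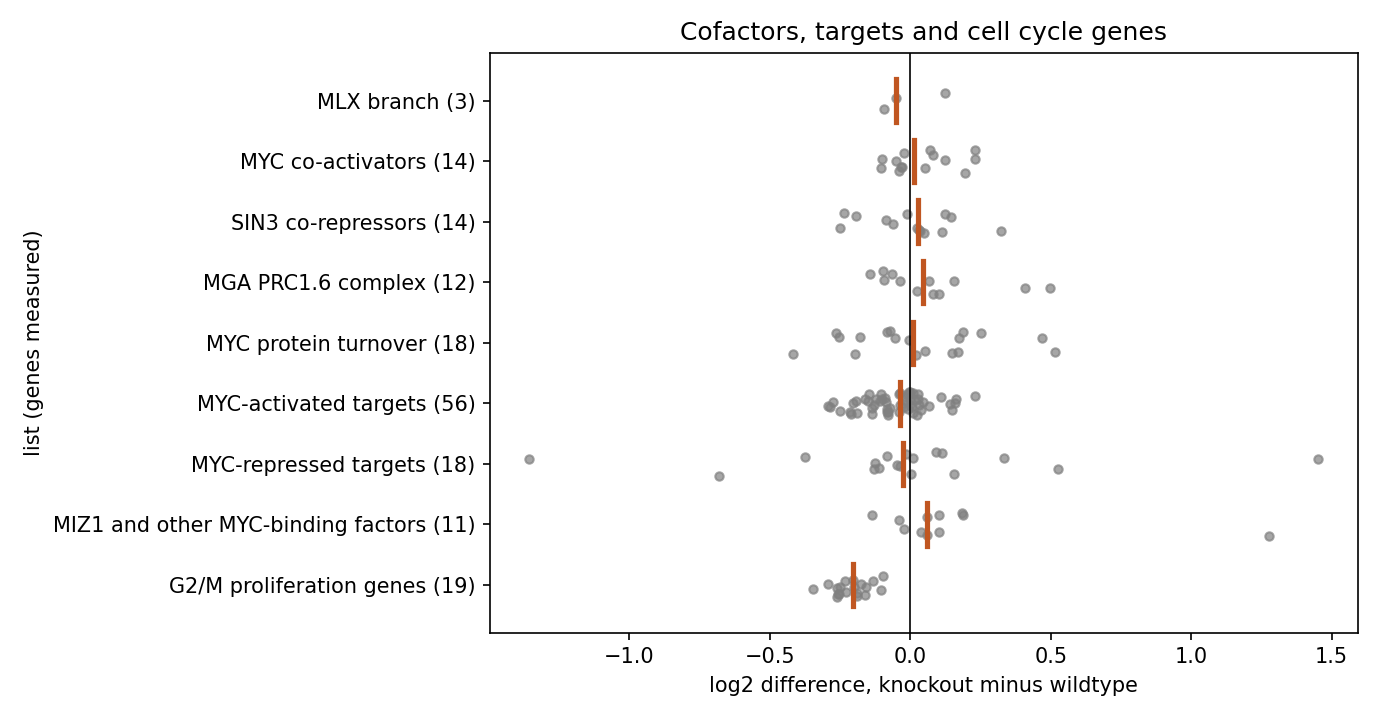
Log2 difference between knockout and wildtype means for each measured gene of the cofactor, target and cell cycle lists (grey points) with the median of each list (orange bar); numbers in brackets are genes measured. The medians lie between -0.20 for G2/M genes and 0.061 for MYC-binding factors, and no gene shown passed the adjusted test.

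The parallel MLX branch, whose factors sense sugar and pair with MLX instead of MAX, gave 1 higher and 2 lower means, with differences of -0.049 for Mlx, 0.12 for Mlxip and -0.093 for Mlxipl, none of which passed. Mlx was at 8.91 on knockout replicate 3 and between 9.42 and 9.90 elsewhere. Of 15 listed co-activators of MYC, 14 were measured, 7 higher and 7 lower, with a median of 0.015. The 4 with the highest mean were Actl6a (-0.029), Hcfc1 (0.052), Ep300 (0.23) and Crebbp (0.23). Groups did not overlap for 2 of the 14, Kat5 and Trrap, which is 14.3%, beside 7.15% of all genes. Kat5, a histone acetyltransferase, had values of 9.57, 9.38 and 9.49 in wildtype and 9.68, 9.67 and 9.68 in knockout cells (difference 0.19, SE 0.079, limma adjusted p = 1.00). Trrap, a scaffold of acetyltransferase complexes, had 10.03, 9.99 and 9.99 in wildtype and 10.17, 10.05 and 10.16 in knockout cells (difference 0.12, SE 0.073, adjusted p = 1.00). Groups overlapped for the other subunits listed that share a complex with these 2, with differences of 0.072 for Ep400, -0.10 for Ruvbl1, -0.10 for Ruvbl2 and -0.029 for Actl6a.

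The SIN3 co-repressors through which MXD proteins act had 14 of 16 genes measured, 8 higher and 6 lower, with a median of 0.026 and no groups apart. Their brightest genes, the deacetylases Hdac1 (-0.010) and Hdac2 (-0.060) and the histone chaperones Rbbp4 (0.030) and Rbbp7 (0.11), differed little. The polycomb complex that contains MGA had 12 of 12 genes measured, 7 higher and 5 lower, with a median of 0.046 that was -0.051 without wildtype replicate 1, -0.042 without wildtype replicate 3, -0.031 without knockout replicate 1 and -0.030 with array weights. Its brightest members Cbx3, Tfdp1, Rnf2 and Wdr5 had differences of -0.093, -0.14, 0.16 and 0.079.

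Regulators of MYC protein stability had 18 of 19 genes measured, 9 higher and 9 lower, with a median of 0.0088. The brightest were the kinase Pim1 (0.15), the ubiquitin ligase Huwe1 (0.020), the kinase Gsk3a (0.052) and the mitotic kinase Plk1 (-0.18). Groups did not overlap for 2 of the 18 (11.1%, beside 7.15% of all genes), Gsk3a and Pim2, and in both by a small gap. For Gsk3a, wildtype replicate 3 was at 11.0644 and knockout replicate 3 at 11.0675. Pim2 had 7.81, 8.16 and 7.82 in wildtype and 7.80, 7.51 and 7.71 in knockout cells (difference -0.25). Its nearest values were 7.813 on wildtype replicate 1 and 7.798 on knockout replicate 1. Other MYC-binding factors had 11 of 11 measured, 8 higher and 3 lower, with a median of 0.061. The brightest were Yy1 (0.18), Pfdn5 (-0.041), Sp1 (0.059) and Smad3 (0.19). Groups did not overlap for 2 of the 11 (18.2%, beside 7.15% of all genes), namely Zbtb17, the MIZ factor that recruits MYC to repressed genes (difference 0.039), and Mycbp2 (1.28), a large ubiquitin ligase whose wildtype values of 9.10, 6.42 and 8.84 spread widely. None of the genes of these lists passed the adjusted limma test. The G2/M genes had 19 lower and 0 higher means, with a median of -0.20 that became 0.096 without knockout replicate 3 and -0.0095 with array weights, and Mki67, Ccnb2, Aurkb and Top2a had differences of -0.20, -0.26, -0.19 and -0.20.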

How the data were processed

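Total RNA from 3 AES wildtype and 3 AES knockout samples was biotin-labelled and hybridised to mouse gene arrays, 1 per sample, per the labels' protocols. The authors deposited processed values, used here as log2 values. Nothing in the labels states their base, background correction or normalization, and base 2 was assumed from the range of the values. The array table has 35512 rows, 1 of them without values. Rows with 1 symbol (21789) were named, with symbols updated by gene identifier for 21698, and the row with the highest 6-array mean stood for each of 19938 genes. Rows with several symbols (1621) or none (12102) were left out. No detection call, filter or further normalization was applied. The number of arrays limits the precision.

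Groups came from the sample titles. Knockout was compared with wildtype with limma 3.58.1 (R 4.3.3; lmFit and eBayes, two-sided, Benjamini-Hochberg over all genes, threshold 0.05), and single genes with an exact permutation test. Lists were described by counts and medians. Named genes were all members, every gene of lists of up to 4, the 4 brightest genes of longer lists, Tle5, and the 4 genes with the profile most like Myc and the 2 other most variable members; others are named where a small count or extreme called them, after their values were seen. The alternatives tried were median centring, quantile normalization, leaving out dim genes, array weights, a replicate block, averaging the rows of each gene, trend and robust options of eBayes, no variance moderation, and omission of each array in turn. The members and lists were chosen with earlier results of these data known. On simulated data for knockout against wildtype (19938 genes, 100 changed 2-fold and 100 changed 4-fold, independent normal noise), limma recovered 72 and 92 of them with 7 false calls. In the real data 0 of 19938 genes passed, and Tle5, 4.34-fold lower in knockout cells, had a limma adjusted p of 0.234. The simulated noise left out differences between arrays that many genes share. These shares therefore do not carry over to Tle5, to the members or to other genes of the real data. Figures were drawn with matplotlib 3.10.9 in Python 3.11.15.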

Additional observations from a re-analysis of the deposited data

How the results depend on the processing

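Under the 14 alternatives, 0 members passed the adjusted limma test (smallest adjusted p 0.897). The count of called genes was 0 in all alternatives but one, and leaving out single arrays gave 0 to 3: without knockout replicate 2, Tle5 (-2.29) and the Y-linked Kdm5d (-3.83) and Uty (-4.74) passed. With the replicate number as a block 0 genes passed and 459 had an unadjusted p under 0.05; the numbers are not shown to pair samples, since deviations of same-numbered arrays correlated at -0.26, -0.23 and 0.075, and not every array correlated best with its own number.

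Of 138 member values under the alternatives, 21 turned in direction. Median centring, which shifts the difference of every gene by the same amount, gave 0.00011 for Mycn, 0.021 for Mycl and 0.0074 for Mxd1. Quantile normalization gave 0.018 for Mycl. Array weights gave 0.0090 for Mycl, 0.39 for Mxd1, 0.15 for Mxd3 and -0.032 for Mga. The weights were highest for knockout replicate 2 (2.19) and lowest for knockout replicate 3 (0.573). The cause of the turns under quantile normalization and array weights was not tested. With single arrays left out, differences ranged from -0.16 to 0.32 for Myc, -0.072 to 0.025 for Mycn, -0.058 to 0.081 for Mycl, 0.26 to 0.57 for Max, -0.34 to 0.27 for Mxd1, -0.12 to 0.020 for Mxi1, -0.30 to 0.14 for Mxd3, 0.12 to 0.68 for Mxd4, 0.0027 to 0.12 for Mnt and -0.11 to 0.11 for Mga. List medians ranged from 0.0011 to 0.11 for co-activators, -0.070 to 0.092 for MYC protein turnover, 0.025 to 0.16 for MYC-binding factors, -0.15 to 0.019 for the MLX branch, -0.016 to 0.051 for SIN3 co-repressors, -0.051 to 0.047 for the MGA complex, -0.18 to 0.10 for activated targets, -0.11 to 0.087 for repressed targets and -0.40 to 0.096 for G2/M genes. The filter on dim genes left out Mycn and Mycl. The planned change of offset applied to linear data and was not run. Signal near the array median limits Mycn and Mycl.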
